A study of Mus musculus with 9 samples.

Results

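Il10, Ebi3, Il12a, Areg, Fgl2 and Penk, the 6 genes described here, encode secreted products through which regulatory T cells (Tregs) are known to restrain immune responses or help tissue repair. They were chosen by symbol among the 23992 gene symbols of the deposited tables, and the transcript with the most reads over the 9 libraries stood for each. Messenger RNA was sequenced from Tregs (source label: spleens) of BALB/c mice carrying a Foxp3-linked green fluorescent protein. Cells of every group carried a transduced hEGFR-oIL-2Rβ, the orthogonal beta chain of the IL-2 receptor with a human EGFR tag. They were grown on CD3/CD28 beads with 1000 IU/mL human IL-2 for 48 h, selected magnetically through the tag and rested overnight without IL-2. For the last 4 h, 1 group stayed without IL-2, the second received wild-type (WT) IL-2 at 20000 IU/mL, and the other received orthogonal (ortho) IL-2, an engineered cytokine meant for the engineered receptor, at 2000000 IU/mL. Each group had 3 libraries. The cells had therefore all seen human IL-2 and receptor stimulation earlier in culture, and the ortho dose in IU/mL was not matched to the WT dose. The labels name no separate cultures or animals, so that the spread behind each p-value is that among these libraries alone and may be technical.

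IL-10 is an anti-inflammatory cytokine that signals through a receptor of IL-10RA and IL-10RB chains. EBI3 is a shared subunit: with the IL-12A chain it forms IL-35, and with the IL-27 p28 chain it forms IL-27. Amphiregulin, the product of Areg, is an EGFR ligand shed from the cell membrane that drives epithelial repair, FGL2 is a secreted fibrinogen-like protein that acts through low-affinity Fc receptors, and Penk encodes the precursor of the opioid enkephalin peptides.

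In GRCm38 (the mm10 build of the tables), with GENCODE vM21 gene bounds, Il10 lies at chr1:131019845-131024974 and Ebi3 at chr17:55952640-55957022, both on the plus strand. Il12a lies at chr3:68690644-68698547, Areg at chr5:91139599-91148432 and Fgl2 at chr5:21372642-21378374, all plus, and Penk lies on the minus strand at chr4:4133531-4138819. Il10, Il12a and Areg overlap no other annotated gene. Ebi3, Fgl2 and Penk each overlap a gene on the opposite strand (Gm16712, Ccdc146 and A830012C17Rik), and reads of such pairs cannot be told apart because the use of strand is not stated. Gm16712 had 90 reads over the 9 libraries against 4536 for Ebi3, and Ccdc146 had 57 against 17367 for Fgl2. No such count is given here for A830012C17Rik, so the overlap at Penk was not checked in this way.

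RefSeq (GRCm38.p6) promoter windows matched 4 of the 6 genes, Ebi3, Il12a with its separate start sites, Areg and Fgl2. The set of windows used held none for Il10 or Penk, so these genes were not searched. The 250 bases before each start were searched on both strands for the STAT motif TTCNNNGAA, the AP-1 motif TGANTCA, the cyclic AMP response motif TGACGTCA and the TATA motif TATAAA. None of the matches overlapped another. The Areg window held TGACGTCA 61 bases and TATAAA 31 bases before the start. The Fgl2 window held a STAT motif match 36 bases and an AP-1 motif match 16 bases before the start, and the windows of Ebi3 and Il12a held none of the 4 motifs. These stretches are shown because they are the members' only windows with matches, which stand in capitals, 5′ to 3′ on the plus strand. The Areg line is chr5:91139349-91139598, and the Fgl2 line is the 30 bases at chr5:21372635-21372664 that hold both matches; GENCODE vM21 begins Fgl2 inside that stretch.
Areg: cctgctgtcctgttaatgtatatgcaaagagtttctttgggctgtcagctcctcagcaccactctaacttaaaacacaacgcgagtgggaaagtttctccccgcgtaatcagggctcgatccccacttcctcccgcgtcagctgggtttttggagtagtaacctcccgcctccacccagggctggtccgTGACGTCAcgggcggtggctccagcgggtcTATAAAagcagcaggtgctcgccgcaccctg
Fgl2: ttTTCTGGGAActcagaacgccTGAGTCAg
Of all 32851 RefSeq windows of the same length, 7.02% held the STAT motif, 6.75% the AP-1 motif, 1.55% the cyclic AMP response motif and 12.4% the TATA motif. A match is a run of letters only, and nothing in these libraries measured binding.

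Libraries held 16581624 to 58182835 reads in genes. Levels are in CPM (reads scaled to library size, corrected by TMM), and a floor of 3 reads corresponds to 0.0516 to 0.181 CPM, which covers counting error only. The 6 Treg markers fixed for the check, Foxp3, Il2ra, Ikzf2, Ctla4, Tnfrsf18 and Il2rb, were all abundant, with a summed level of 5453 to 5467 CPM without IL-2, 10017 to 10172 CPM with WT IL-2 and 9863 to 10280 CPM with ortho IL-2. All 7 T cell markers in the tables were tested, at sums of 3537 to 3628, 3163 to 3283 and 3218 to 3300 CPM in the same order. The 9 CD8 T and NK cell markers (3 tested) summed to 19.4 to 19.7, 27.2 to 31.7 and 28.9 to 30.4 CPM, with Klra8 at 0. The 9 mast cell, basophil and ILC2 markers (Kit tested) summed to 40.6 to 42.9, 58.1 to 65.6 and 56.1 to 61.3 CPM, with Fcer1a and Tpsb2 at 0. The share of reads outside the transcripts taken for the genes was 38.9% to 43.3% without IL-2, 29.1% to 34.9% with WT IL-2 and 25.7% to 33.0% with ortho IL-2, so that the no IL-2 libraries stood apart from the others in this measure too. This share was inferred and not measured directly: it takes each library's RPKM divisor, described below, as its total of reads.

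The members differed widely in level. Per kilobase of transcript, Fgl2 was the most abundant without IL-2 (16.9 ± 1.06 CPM per kb, SD, n = 3), followed by Ebi3 (12.1 ± 0.252), Penk (3.48 ± 0.101), Il10 (2.07 ± 0.0573), Areg (0.305 ± 0.0745) and Il12a (0.0265 ± 0.0460), in the same unit and n. No neighbours in this order overlapped between libraries in the no IL-2 group. The order of the group means was the same with WT and ortho IL-2, where the libraries of Fgl2 and Ebi3 overlapped and no other neighbours did. By mean CPM per kb without IL-2, 57.3% of the 10702 genes tested lay below Fgl2, 46.7% below Ebi3, 15.0% below Penk and 6.30% below Il10. Testing required an RPKM of 1 or more in 3 or more of the 9 libraries. Areg and Il12a did not reach it, so 4 of the 6 members were tested.

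**Figure D1:**
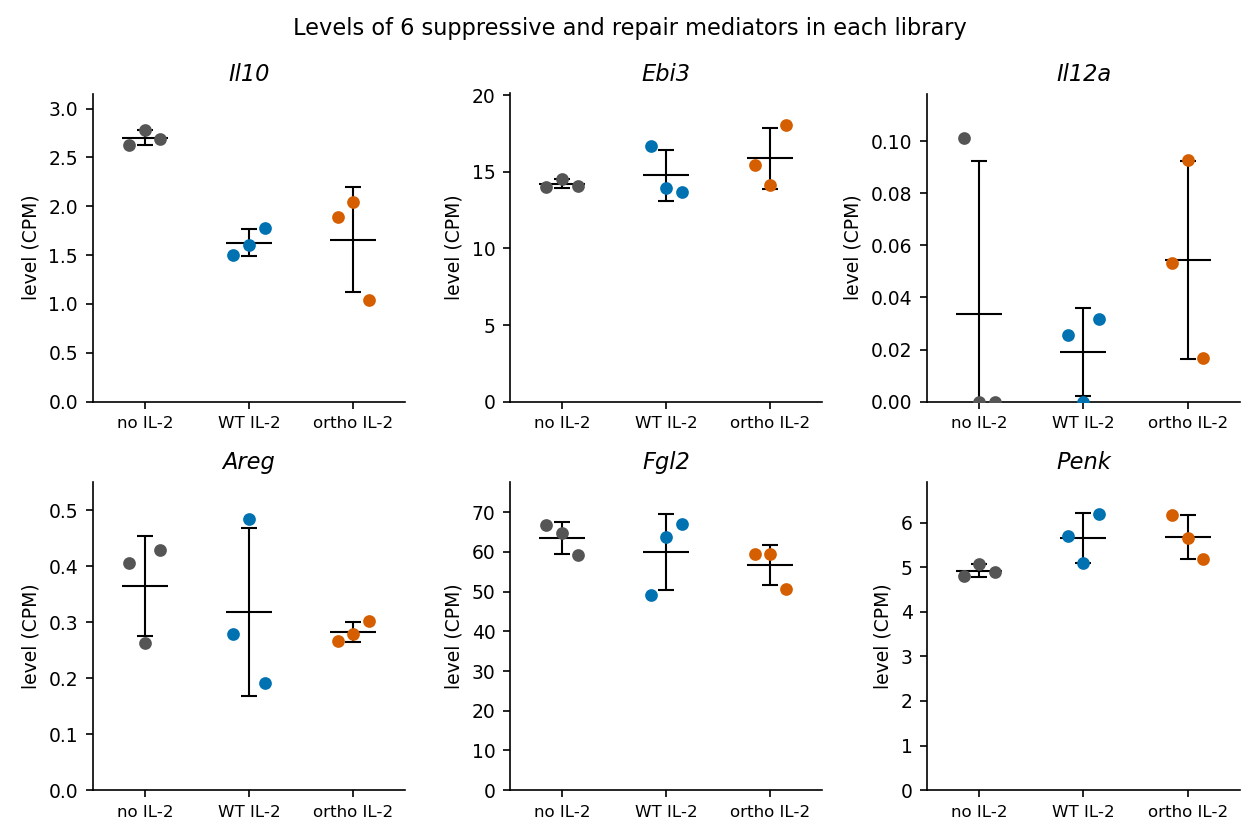
Level (CPM, linear axis from 0, a separate scale for each gene) of the 6 mediators in each of the 9 libraries, replicates 1 to 3 from left to right in each group; bars are the mean ± SD of 3 libraries. The 3 no IL-2 libraries of Il10 (2.63 to 2.78 CPM) lie above all 6 libraries with IL-2, while the groups overlap for Ebi3, Fgl2, Areg and Il12a.

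In the reported fit, Il10 was the only tested member with an adjusted p under 0.05. It was lower with both cytokines. Its level was 2.63, 2.78 and 2.69 CPM in the no IL-2 libraries, 1.499, 1.605 and 1.778 CPM with WT IL-2, and 1.89, 2.04 and 1.04 CPM with ortho IL-2. All 3 no IL-2 libraries were higher than all 6 IL-2 libraries, and ortho IL-2 replicate 3, the most deeply sequenced library, was the lowest of all. These levels rest on 44 to 78 reads per library. With WT IL-2 Il10 was 1.66-fold lower than without IL-2 (95% interval 1.17 to 2.37, log2 fold change -0.73, SE 0.23, adjusted p = 0.0242 by edgeR's quasi-likelihood test with Benjamini-Hochberg adjustment). With ortho IL-2 it was 1.70-fold lower (1.19 to 2.42, log2 fold change -0.76, SE 0.23, adjusted p = 0.0182 by edgeR). The comparisons with no IL-2 share their control libraries. In bulk libraries, fewer cells making a transcript and less of it per cell cannot be told apart.

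Il10 met the filter through its 3 no IL-2 libraries and ortho IL-2 replicate 2. It was also called by edgeR with a filter that does not use RPKM (filterByExpr, adjusted p = 0.0316 with WT and 0.0265 with ortho IL-2). With a covariate for the share of reads falling outside genes, the log2 fold changes were -0.18 and -0.08 and neither was called (adjusted p = 0.796 and 0.933), and that share does not overlap between the no IL-2 libraries and the others. The WT call was lost without any of the no IL-2 libraries or without WT IL-2 replicate 1 or 2 (adjusted p 0.0538 to 0.0683), and the ortho call without no IL-2 replicate 2 (0.0552). Without ortho IL-2 replicate 3 the ortho log2 fold change was -0.47 and still called. The marker lists of other cells that can make IL-10 moved in both directions: the sums of the myeloid and B cell lists were lower with IL-2, and those of the mast cell and CD8 T and NK cell lists given above were higher. Without Kit, the mast cell list gave 0.367 to 0.844 CPM without IL-2, 0.575 to 0.762 with WT and 0.740 to 1.01 with ortho IL-2. Without Cd8b1, Prf1 and Gzma, the CD8 T and NK list gave 6.43 to 7.76, 7.48 to 7.91 and 7.38 to 8.65 CPM. For both lists each IL-2 range then overlapped that without IL-2. Prf1 and Gzma also stand in the list of other suppressive mediators. The 14 myeloid and dendritic cell markers in the tables, of which Itgam alone was tested, summed to 12.7 to 15.3 CPM without IL-2, 8.23 to 10.4 with WT and 9.30 to 9.59 with ortho IL-2. Without Itgam the sums were 2.59 to 3.07 CPM without IL-2, 2.00 to 2.48 with WT and 1.98 to 2.69 with ortho IL-2, and the ortho range alone reached that without IL-2. The 9 B and plasma cell markers in the tables, of which Cd79b alone was tested, summed to 7.03 to 8.08 CPM without IL-2, 5.30 to 6.70 with WT and 6.10 to 6.35 with ortho IL-2. Without Cd79b the sums were 4.95 to 5.87 CPM without IL-2, 3.15 to 4.92 with WT and 3.57 to 4.20 with ortho IL-2. For this list each IL-2 range then still lay below that without IL-2. None of the myeloid or B cell markers was at 0 in every library, and the part of these 4 lists in the Il10 result was not tested.

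**Figure D2:**
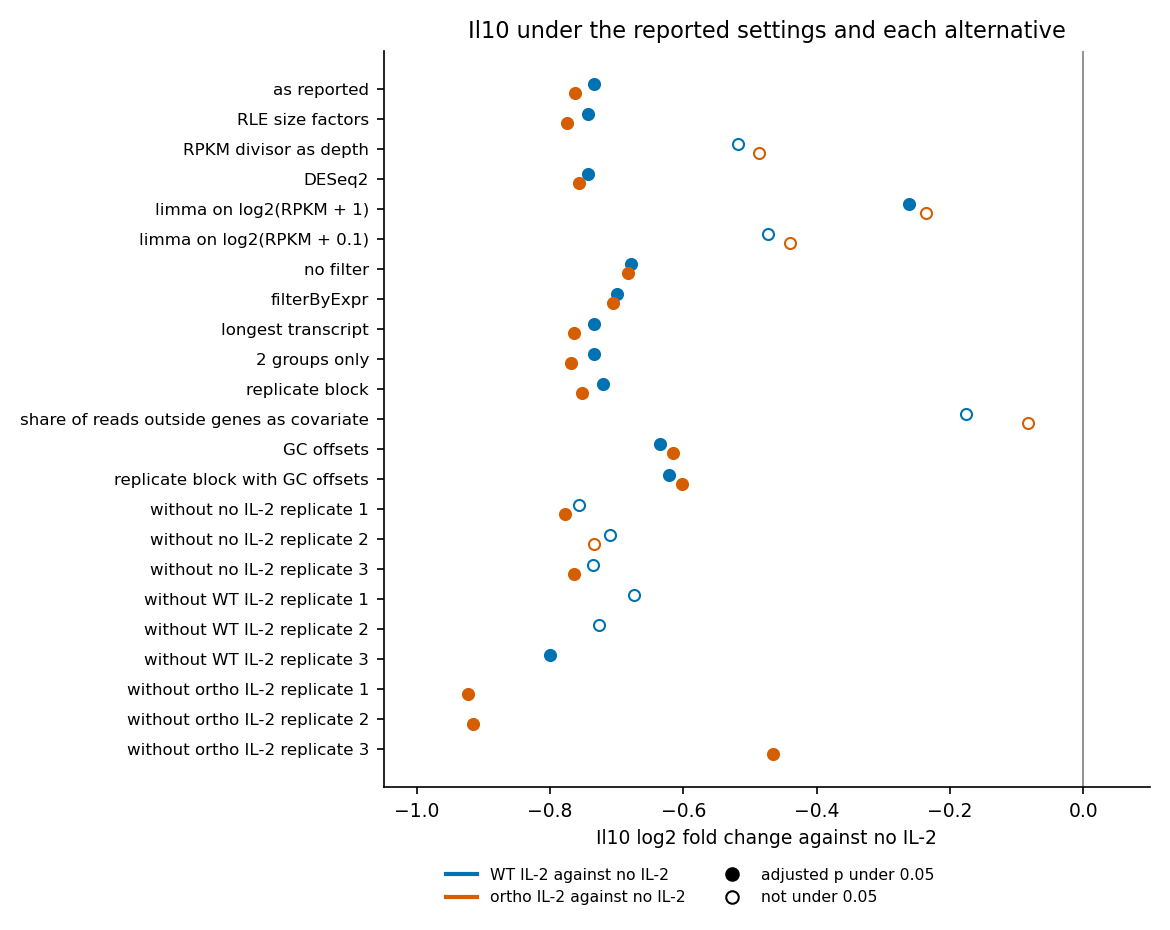
Log2 fold change of Il10 against no IL-2 as reported and under each alternative processing, for WT (blue) and ortho IL-2 (orange); filled points have an adjusted p under 0.05. All values lie below 0, from -0.92 (ortho, without replicate 1 or 2) to -0.08 (ortho, with the covariate for reads outside genes), and open points mark the settings in which the call was lost.

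The other IL-10 family genes gave few reads. Il20, Ifnl2 and Ifnl3 had none in any library, Il22 had at most 5 and Il24 at most 3. Il19, which neighbours Il10, had 0.493 ± 0.234 CPM without IL-2, 0.143 ± 0.0717 with WT and 0.152 ± 0.127 with ortho IL-2 (SD, n = 3), on 1 to 21 reads per library, and was not tested. Of the genes listed around the Il10 locus, Mapkapk2, which encodes a stress kinase known to stabilise cytokine mRNAs, rose from 137 ± 7.21 CPM to 232 ± 7.35 with WT and 230.1 ± 10.0 with ortho IL-2 (log2 fold change 0.76 and 0.75, edgeR adjusted p = 2.1e-06 and 2.29e-06). Dyrk3, a kinase gene, rose by log2 0.44 and 0.57 (edgeR adjusted p = 0.0323 and 0.00806). The Dyrk3 call for WT IL-2 was lost in 7 alternatives, among them the fits without no IL-2 replicate 2 (adjusted p = 0.118) or 3 (0.0991) and without WT IL-2 replicate 2 (0.0819) or 3 (0.0764), and the replicate block (0.0636). With the covariate for reads outside genes Dyrk3 was called with neither cytokine (0.233 and 0.214).

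The receptor list for the 6 mediators had 13 genes, of which 7 were tested. With WT IL-2, 3 rose and 1 fell. Under ortho IL-2, 4 rose and 1 fell. The receptors had a median log2 fold change of 0.15 and 0.23 against 0.01 and 0.01 over all genes tested. Il10ra, the ligand-binding IL-10 receptor chain, rose from 149 ± 1.66 CPM to 215 ± 16.9 with WT and 225 ± 10.7 with ortho IL-2 (SD, n = 3), a log2 fold change of 0.53 and 0.59 (edgeR adjusted p = 6.52e-05 and 2.85e-05). Il10rb, the shared second chain, stood at 97.8 ± 1.67, 104 ± 4.68 and 101 ± 1.74 CPM and was called with neither (edgeR adjusted p = 0.108 and 0.443). Il10rb overlaps Gm21970 on the same strand, so its value is uncertain to that extent. Per kilobase without IL-2, Il10ra reached 42.7 and Il10 2.07 CPM, so the receptor transcripts were far more abundant than the ligand's in the same bulk libraries.

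Ebi3 was well detected, and its chain partners were not. Its level was 14.0, 14.5 and 14.1 CPM without IL-2, 16.7, 13.9 and 13.7 CPM with WT IL-2, and 15.4, 14.1 and 18.0 CPM with ortho IL-2. The groups overlapped, with WT IL-2 replicate 1 and ortho IL-2 replicate 3 the highest. The log2 fold change was 0.06 with WT IL-2 (95% interval -0.19 to 0.30, edgeR adjusted p = 0.698) and 0.17 with ortho IL-2 (-0.08 to 0.41, adjusted p = 0.218). With the RPKM divisor as depth, under which the median of all genes rose by 0.29 with ortho IL-2, Ebi3 was called for ortho IL-2 at 0.45 (edgeR adjusted p = 0.0144), which is 0.16 above that median.

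Il12a, the partner chain of IL-35, had 3, 0 and 0 reads without IL-2, 1, 0 and 1 with WT IL-2, and 2, 2 and 1 with ortho IL-2. Summed over the 3 libraries, this is 0.0413 CPM without IL-2 (exact 95% Poisson interval 0.00852 to 0.121), 0.0193 with WT (0.00233 to 0.0695) and 0.0422 with ortho IL-2 (0.0137 to 0.0984); the intervals cover counting error only. A difference between the groups was not detectable at this depth. A further Il12a transcript in the tables had 9 reads over the 9 libraries, against 10 for the transcript taken. Il27, the p28 partner in IL-27, had 2 reads in all and Il12b, the partner of Il12a in IL-12, also 2, each in a single library, and Il23a had 1 to 5 reads per library. Of the 5 IL-12 family subunit genes, Ebi3 alone was tested.

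Of the receptor chains for these cytokines, Il12rb1, the shared IL-12 and IL-23 receptor chain, was higher with WT and ortho IL-2 (12.7 ± 0.801 CPM without IL-2, 27.3 ± 3.90 and 30.05 ± 2.93 with, log2 fold change 1.11 and 1.25, edgeR adjusted p = 2.95e-05 and 1.26e-05). Il12rb2, which serves the IL-12 receptor and has been described in an IL-35 receptor, rose from 8.61 ± 0.542 CPM to 16.0 ± 0.816 and 14.6 ± 0.811 (log2 fold change 0.89 and 0.77, adjusted p = 1.49e-05 and 4.14e-05 by edgeR). Il12rb2 overlaps Serbp1 on the opposite strand, so its value is uncertain to that extent. Il6st, the gp130 chain shared by the IL-6 family and IL-27, fell from 222 ± 9.40 CPM to 162 ± 2.67 and 163 ± 5.18 (log2 fold change -0.45 and -0.44, adjusted p = 2.63e-05 and 3.05e-05 by edgeR), although with the RPKM divisor as depth the ortho call was lost (-0.16, adjusted p = 0.0762). Il27ra stood at 181 ± 6.04, 176 ± 20.5 and 192 ± 12.5 CPM and was called in neither comparison.

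**Figure D3:**
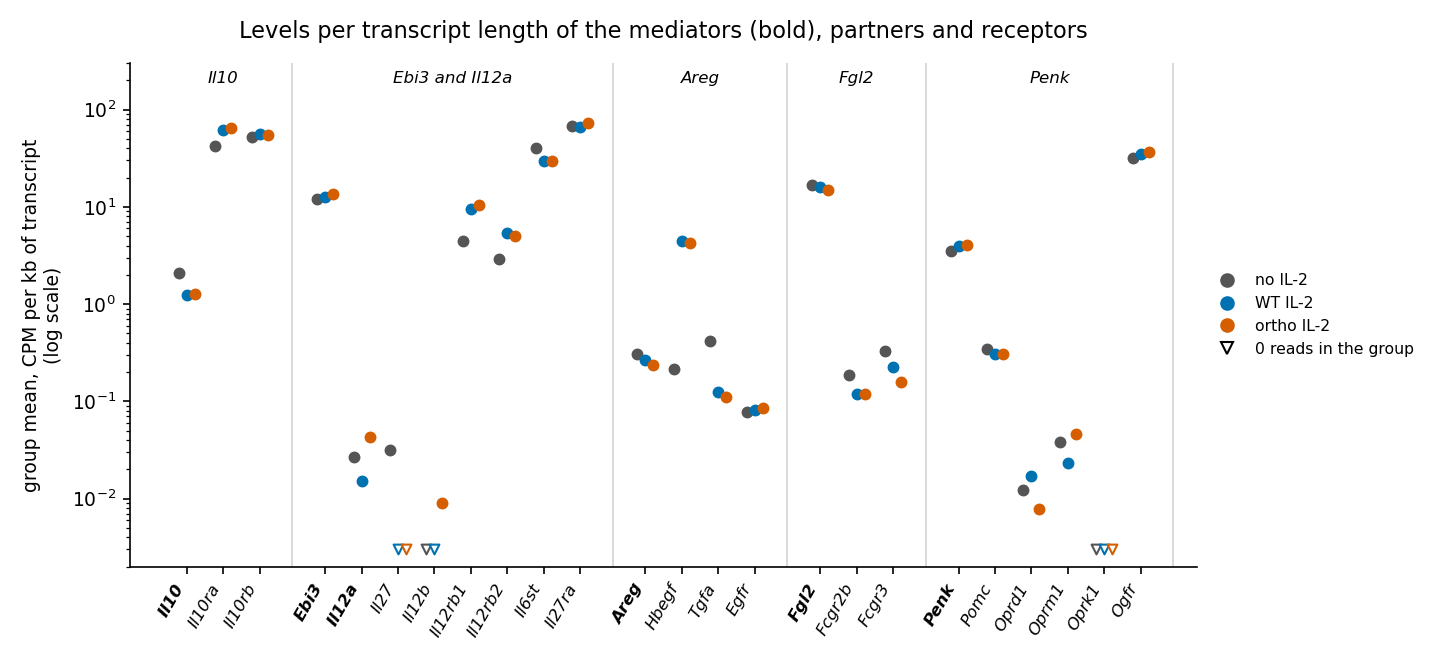
Group mean level per kilobase of transcript (CPM per kb, log axis) of the 6 mediators (bold names) with partner chains, family members and receptors; circles are means of 3 libraries and open triangles mark groups with 0 reads. Ebi3 lies near 12 to 14 CPM per kb in every group, its partners Il12a and Il27 below 0.05, and Hbegf moves from 0.215 to above 4.

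Areg, the repair factor, was near the limit of detection. It had 12, 7 and 7 reads without IL-2, 11, 16 and 6 with WT IL-2, and 10, 6 and 18 with ortho IL-2. In CPM these were 0.405, 0.263 and 0.428, then 0.279, 0.484 and 0.191, then 0.266, 0.278 and 0.303, and the groups overlapped. Summed over libraries, Areg stood at 0.358 CPM without IL-2 (exact 95% Poisson interval 0.234 to 0.525), 0.318 with WT (0.219 to 0.446) and 0.287 with ortho IL-2 (0.199 to 0.401). With filterByExpr, under which Areg enters the test, its log2 fold change was -0.14 with WT (95% interval -1.11 to 0.82, edgeR adjusted p = 0.814) and -0.29 with ortho IL-2 (-1.26 to 0.69, adjusted p = 0.605). A difference within these intervals was not detectable at this depth.

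The EGFR ligand that rose was Hbegf, which encodes heparin-binding EGF-like growth factor. It reached 0.511 ± 0.241 CPM without IL-2, on a lowest count of 5 reads, 10.5 ± 0.492 with WT and 10.2 ± 0.237 with ortho IL-2 (SD, n = 3). The log2 fold change was 4.26 (SE 0.20) and 4.22 (SE 0.20), with edgeR adjusted p = 1.18e-07 and 1.25e-07. Per kilobase with WT IL-2, Hbegf stood at 4.41 CPM and Areg at 0.265 CPM. Hbegf was the single tested gene of the 7 EGFR ligands. Among those under the filter, Tgfa had 1.77 ± 0.436 CPM without IL-2, 0.531 ± 0.0964 with WT and 0.467 ± 0.149 with ortho IL-2, and Ereg, Epgn, Btc and Egf each stayed below 1 CPM in the group means. Egfr, the mouse receptor gene, was under the filter at 0.465 ± 0.202, 0.488 ± 0.103 and 0.515 ± 0.0381 CPM; the human EGFR tag is not a row of these mouse tables.

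EGFR ligands are released from the membrane by ADAM proteases with their iRhom partners. Of the 4 tested genes of this list, 1 was higher and 1 lower with each cytokine, at a median log2 fold change of -0.13 with WT and -0.11 with ortho IL-2. Rhbdf2, which encodes iRhom2, rose from 9.96 ± 0.706 CPM to 16.7 ± 3.87 and 17.6 ± 2.67 (log2 fold change 0.75 and 0.83, edgeR adjusted p = 0.00454 and 0.00223). Adam17, the main shedding protease, had 161 ± 2.37, 138 ± 5.87 and 134 ± 4.74 CPM (log2 fold change -0.23 and -0.26, edgeR adjusted p = 0.00272 and 0.00103), but with the RPKM divisor as depth it was -0.01 and 0.01 and not called. Adam10 was called in neither comparison (edgeR adjusted p = 0.654 and 0.203), although GC offsets called it higher in both (0.096 and 0.099). Frmd8, which encodes an iRhom-binding factor, had adjusted p = 0.0572 and 0.457 by edgeR, but with WT IL-2 it was called lower in 6 alternatives, among them DESeq2 (log2 fold change -0.29, adjusted p = 0.023), the fit without WT IL-2 replicate 1 (-0.41, 0.00418) and GC offsets (-0.43). GC offsets also called it lower with ortho IL-2 (-0.32).

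Fgl2 was the most abundant of the 6 genes and was not called. Its level was 66.9, 64.8 and 59.1 CPM without IL-2, 49.2, 63.7 and 67.2 CPM with WT IL-2, and 59.6, 59.6 and 50.8 CPM with ortho IL-2. WT IL-2 replicate 1 was the lowest library and WT IL-2 replicate 3 the highest, so the groups overlapped. The log2 fold change was -0.09 with WT IL-2 (95% interval -0.34 to 0.17, edgeR adjusted p = 0.547) and -0.17 with ortho IL-2 (-0.43 to 0.08, adjusted p = 0.219). The direction was not stable: it was 0.13 and 0.10 with the RPKM divisor as depth and 0.08 and 0.09 with GC offsets, none of them called. The low-affinity Fc receptors through which FGL2 is known to act were under the filter, Fcgr2b at 0.291 ± 0.151, 0.182 ± 0.0538 and 0.183 ± 0.0309 CPM and Fcgr3 at 0.444 ± 0.0797, 0.305 ± 0.0887 and 0.213 ± 0.0734 CPM.

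Penk lay slightly higher in every IL-2 library, without passing the test. Its level was 4.79, 5.07 and 4.89 CPM without IL-2, 5.69, 5.09 and 6.19 CPM with WT IL-2, and 6.18, 5.66 and 5.18 CPM with ortho IL-2. The no IL-2 libraries did not overlap the others, although no IL-2 replicate 2 (5.07) and WT IL-2 replicate 2 (5.09) nearly met. The log2 fold change was 0.20 with both WT (95% interval -0.05 to 0.45, edgeR adjusted p = 0.161) and ortho IL-2 (-0.05 to 0.45, adjusted p = 0.146). With the RPKM divisor as depth it was 0.41 and 0.48 and called (edgeR adjusted p = 0.0192 and 0.00677), or 0.19 and 0.19 above the median of all genes, which that scaling moved by 0.22 and 0.29.

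Penk was the single tested gene of the 4 opioid precursors. Pdyn had no reads, Pomc stood at 0.397 ± 0.119, 0.355 ± 0.0690 and 0.354 ± 0.168 CPM, and Pnoc at 0.951 ± 0.266, 0.410 ± 0.226 and 0.281 ± 0.333 CPM, in the order no, WT and ortho IL-2. Of the opioid receptors Oprk1 had no reads, Oprd1 at most 4 and Oprm1 at most 7 per library. Ogfr, which encodes a non-classical enkephalin receptor, had 72 ± 2.52, 80.1 ± 5.18 and 84.4 ± 6.34 CPM and was called with ortho IL-2 alone (log2 fold change 0.23, edgeR adjusted p = 0.0158; 0.15 and 0.0843 with WT IL-2). The Ogfr difference between ortho and WT IL-2 was not called.

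Among 11 genes for enzymes that cut or degrade such peptides, 6 were tested: under WT IL-2, 2 rose and 2 fell, and under ortho IL-2, 3 rose and 2 fell (median log2 fold change 0.19 and 0.25). Cpe, the carboxypeptidase that trims enkephalin intermediates, rose from 33.1 ± 1.37 CPM to 57.2 ± 3.97 and 57.8 ± 3.12 (log2 fold change 0.79 and 0.80, edgeR adjusted p = 7.77e-06 and 6.81e-06). Ctsl, a cathepsin known to process proenkephalin, fell from 114 ± 3.34 CPM to 38.3 ± 2.75 and 36.1 ± 2.36 (log2 fold change -1.58 and -1.66, adjusted p = 6.53e-08 and 4.56e-08 by edgeR). Ctsl overlaps a pseudogene on the same strand, so its value is uncertain to that extent. Dpp3, an enkephalin-degrading peptidase, rose by log2 0.27 and 0.37 (edgeR adjusted p = 0.00634 and 0.000876), and its call was lost with GC offsets (log2 fold change 0.10 and 0.13). Lnpep, an aminopeptidase, was lower by log2 values of -0.32 and -0.38 (edgeR adjusted p = 0.00793 and 0.00262), and its call was lost with the RPKM divisor as depth (-0.11 and -0.11). Pcsk1, a prohormone convertase, was under the filter at 2.62 ± 0.270, 1.69 ± 0.280 and 1.31 ± 0.0502 CPM, and Mme, which encodes neprilysin, had no reads.

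**Figure D4:**
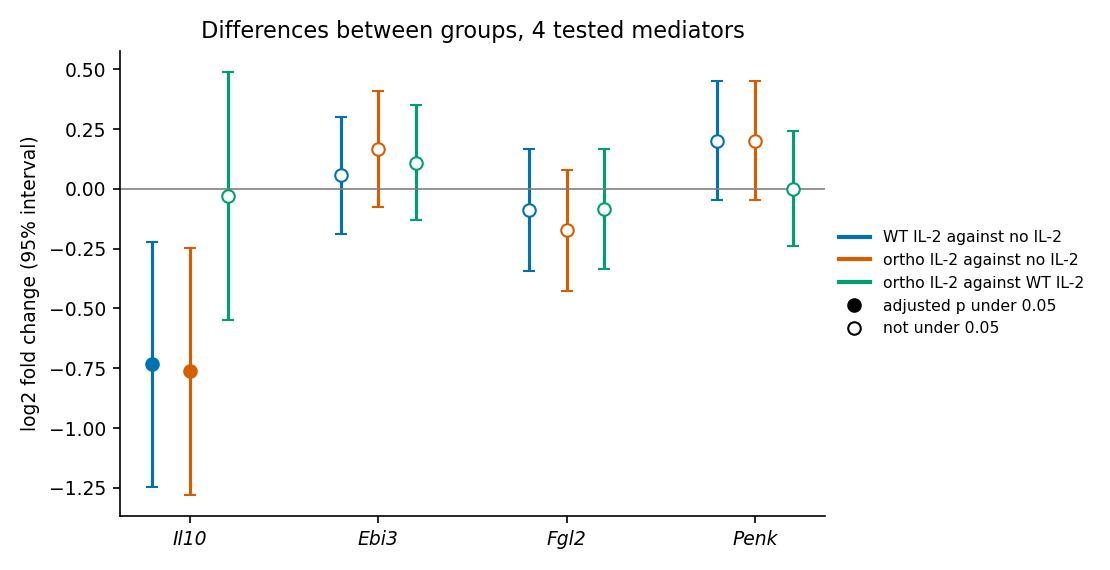
Log2 fold change with its 95% interval for the 4 tested mediators in each comparison; filled points have an adjusted p under 0.05. Il10 against no IL-2 is filled at -0.73 and -0.76, and the intervals of Ebi3, Fgl2 and Penk include 0 in every comparison.

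The counts of members stand beside those of all genes, and with 4 tested members they cannot be read as a difference from them. With WT IL-2, 0 of the 4 tested members were higher and 1 was lower, while 47.9% of the 10702 genes tested were called (25.0% higher and 22.9% lower). With ortho IL-2 the counts were again 0 higher and 1 lower, while 56.0% of genes were called (28.5% higher and 27.4% lower). The no IL-2 libraries did not overlap the IL-2 libraries for 2 of the 4 members, Il10 and Penk, in each comparison, and for 58.8% of genes with WT and 66.1% with ortho IL-2. With filterByExpr, 1 of the 5 members it lets in was called in each, against 41.0% of its 13824 genes with WT and 50.2% with ortho IL-2.

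The ortho and WT IL-2 libraries were compared to ask whether the engineered cytokine and receptor pair gave another level of these transcripts than the natural cytokine, at the unmatched doses used. None of the 4 tested members was called, as 0% of genes were called (149 at an unadjusted p under 0.05 by edgeR, and 0 by DESeq2 and limma after adjustment), also 0% with filterByExpr. The groups overlapped for all 4 members, whereas 4.65% of genes had groups that did not. The log2 fold change of ortho against WT IL-2 was -0.03 for Il10 (95% interval -0.55 to 0.49), 0.11 for Ebi3 (-0.13 to 0.35), -0.08 for Fgl2 (-0.34 to 0.17) and 0.00 for Penk (-0.24 to 0.24). Differences within these intervals were not detectable. For Il10 the interval is widest, and without ortho IL-2 replicate 3 the value was 0.27.

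Genes for factors reported to control Il10 or the effector state of Tregs moved in both directions. Of 20 tested among 22 listed, 6 rose and 7 fell under WT IL-2, and 7 rose and 8 fell under ortho IL-2, at median log2 fold changes of 0.05 and 0.00. Id2, an inhibitor of E-protein transcription factors, rose from 27.2 ± 2.17 CPM to 69.6 ± 2.32 and 67.1 ± 4.00 (log2 fold change 1.35 and 1.30, edgeR adjusted p = 2.26e-07 and 3.06e-07). Nfil3, a basic leucine zipper factor reported to regulate Il10, rose from 67.5 ± 2.42 CPM to 117 ± 2.47 and 118 ± 2.51 (log2 0.80 and 0.81, adjusted p = 3.8e-07 and 3.54e-07 by edgeR). Ahr, the aryl hydrocarbon receptor gene, fell from 15.8 ± 1.05 CPM to 8.52 ± 0.250 and 7.41 ± 0.159 (log2 fold change -0.90 and -1.10, adjusted p = 9.62e-06 and 2.34e-06 by edgeR). Ikzf3, which encodes Aiolos, fell from 367 ± 10.7 CPM to 204 ± 4.93 and 199 ± 7.27 (log2 fold change -0.84 and -0.88, adjusted p = 2.85e-07 and 2.19e-07 by edgeR).

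Like the members and every other list here, the list of other suppressive mediators was chosen with earlier results of these data known. The counts of these lists therefore carry no test of a difference from the members. Of 22 tested, 14 rose and 4 fell under WT IL-2, and 13 rose and 5 fell under ortho IL-2 (median log2 fold change 0.48 and 0.46). Over all genes tested, 47.9% were called in either direction with WT and 56.0% with ortho IL-2. Gzmb, the granzyme B protease, rose from 8.27 ± 0.451 CPM to 69.6 ± 4.47 and 71.3 ± 3.89 (log2 fold change 3.07 and 3.11, edgeR adjusted p = 2.69e-09 and 2.79e-09). Il2ra, the high-affinity IL-2 receptor chain through which Tregs take up IL-2, rose by log2 2.04 and 1.99 (adjusted p = 2.69e-09 and 3.09e-09 by edgeR). Lgals1, which encodes the immunoregulatory lectin galectin-1, rose by log2 0.73 and 0.80 (adjusted p = 1.31e-06 and 6.74e-07 by edgeR). Nrp1, a surface receptor typical of thymic Tregs, fell from 432.2 ± 13.1 CPM to 238 ± 13.7 and 226 ± 5.57 (log2 fold change -0.86 and -0.94, adjusted p = 6.46e-07 and 3.68e-07 by edgeR).

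Of the other repair and growth factors, 3 of the 15 genes in the tables were tested, and all 3 were higher with each cytokine. By comparison, 25.0% of all genes tested were called higher with WT and 28.5% with ortho IL-2. The rest of this list was under the filter, so the count does not describe the list as a whole. Lif, a cytokine of the IL-6 family, rose from 9.88 ± 0.643 CPM to 82.0 ± 6.63 and 88.3 ± 6.58 (log2 fold change 3.05 and 3.16, edgeR adjusted p = 6.64e-09 and 5.29e-09). Pros1, which encodes the TAM receptor ligand protein S, rose by log2 0.52 and 0.45 (adjusted p = 0.000124 and 0.000296 by edgeR). Vegfa, the vascular growth factor, rose by log2 0.31 and 0.36 (adjusted p = 0.000491 and 0.000182 by edgeR), and its call was lost with GC offsets (0.12 and 0.07). Il1rl1, the IL-33 receptor that marks Areg-producing repair Tregs, fell from 207 ± 4.37 CPM to 139 ± 14.6 and 132 ± 8.85 (log2 fold change -0.57 and -0.66, adjusted p = 0.000193 and 7.32e-05 by edgeR). Il18rap, an IL-18 receptor chain, rose by log2 0.36 and 0.24 (adjusted p = 0.0013 and 0.0117 by edgeR), while Il1rap was called in neither comparison. Il18r1 was also called in neither, but with WT IL-2 it was called higher in 5 alternatives, on the RPKM scales (0.30, 0.29 and 0.29) and with GC offsets (0.19, and 0.19 with the block too).

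**Figure D5:**
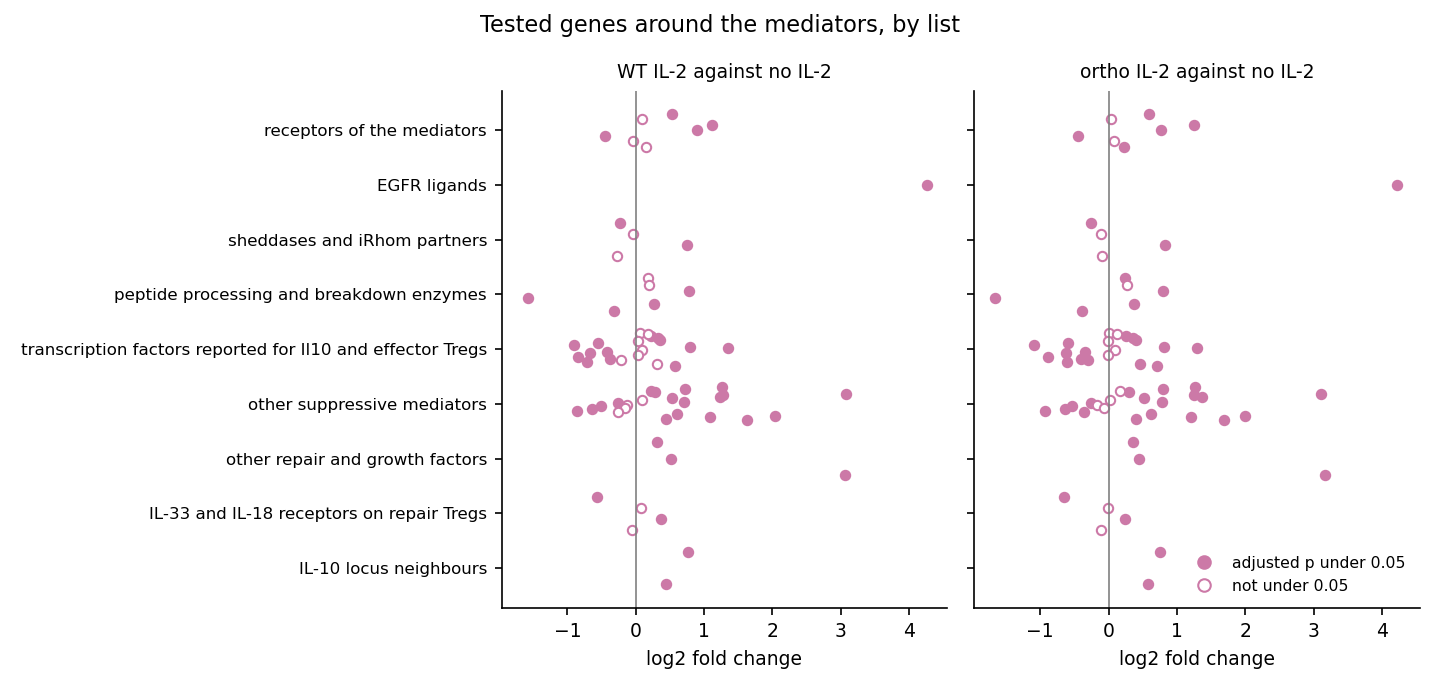
Log2 fold change (x axis) of every tested non-member gene of 9 lists around the mediators with WT IL-2 (left) and ortho IL-2 (right) against no IL-2; each point is a gene and filled points have an adjusted p under 0.05. Hbegf at 4.26 and 4.22 lies farthest to the right, followed by Gzmb and Lif near 3, and Ctsl at -1.58 and -1.66 farthest to the left.

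The genes with the most similar pattern were taken among the 774 tested genes whose highest and lowest group means differed at least 2-fold, by Pearson's r of log2 CPM over the 9 libraries; this is a description, since the libraries fall into groups and share depth and composition. For Il10 these were Prrg1 (r = 0.957), Hpgds (0.897) and Cmah (0.892), and Prrg1 likewise had its highest group mean without IL-2 (15.3 ± 0.992, 7.67 ± 1.38 and 7.25 ± 1.81 CPM). For Ebi3 they were Mif (0.863), 1810043H04Rik (0.820) and Chpf (0.789), and the level of Mif varied widely between IL-2 libraries (57.5 ± 2.52, 102 ± 42.9 and 118 ± 38.1 CPM). For Fgl2 they were Prrg1 (0.712), 2510049J12Rik (0.695) and 9330159M07Rik (0.693). For Penk they were Gm10560 (0.808), Mir147 (0.791) and Gzmc (0.783), of which Mir147 had 4 to 23 reads per library and lies within AA467197 on the same strand, so its reads can be those of that gene. Prrg1 and 9330159M07Rik each hold a small RNA gene on the same strand.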

How the data were processed

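Each library came as a deposited table of raw read counts and RPKM per RefSeq transcript, per the file headers; the authors' RPKM equals reads divided by transcript length and a single whole-number divisor per library. Bowtie2, TopHat2, SAMtools 0.1.8, bedtools 2.25.0, edgeR and the mm10 build are named in the submitters' processing notes; their roles, the counter, the annotation release and strand use were not stated in the sources used here. The growth protocol label describes another assay, so the culture rests on the treatment label. The 6 members, the 12 gene lists and the 6 marker lists were chosen with earlier results of these data known.

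Counts of the most-read transcript per symbol were scaled by TMM and tested with edgeR 4.0.16 (R 4.3.3, glmQLFit and glmQLFTest, group means over all 9 libraries), in genes with RPKM of at least 1 in at least 3 libraries. The p-values are two-sided and were adjusted over 10702 genes by Benjamini-Hochberg, with a threshold of 0.05. SEs come from the F statistic, or from the p-value where edgeR raises it; intervals are 95%. The script was tested on simulated counts. All members were named. From each list, up to 4 tested genes with the smallest p in either comparison with no IL-2 were named, plus genes with few or no reads where a receptor or partner is described; Ogfr, Il10rb, Il27ra and the named genes under the filter that have reads were added after their values were seen. Of 69 tested list genes, 33 overlap another annotated gene, among them Adam17 (Iah1) and Il27ra (Palm3) on the opposite strand. Alternatives were RLE, the RPKM divisor as depth, DESeq2 1.42.0, limma 3.58.1 on log2(RPKM + 1) and log2(RPKM + 0.1), other filters, the longest transcript, fits of 2 groups, a replicate block, GC offsets, a covariate for the share of reads falling outside genes, and each library left out.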

Additional observations from a re-analysis of the deposited data

How the results depend on the processing

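Il10 lay below its no IL-2 level in every alternative run. Its call was lost with the RPKM divisor as depth (WT -0.52, ortho -0.49), with limma on log2(RPKM + 0.1) (-0.47, -0.44) and, for ortho, with limma on log2(RPKM + 1) (-0.24), and with a covariate for the share of reads falling outside genes (-0.18, -0.083), which also cut the genes called to 2130 and 1573 and the members called to 0 and 0. The cause was not tested. Leaving out each library gave -0.80 to -0.67 for WT (called in 1 of 6) and -0.92 to -0.47 for ortho (called in 5 of 6), with 0 to 1 members called in each. On RPKM scales Penk was called (divisor 0.41 and 0.48; limma 0.29 and 0.34 with pseudocount 1, 0.39 and 0.46 with 0.1), as was Ebi3 for ortho IL-2 (0.45, 0.38 and 0.42); members called were then 2 for ortho under all 3 and 2 for WT under limma with pseudocount 1. These scales move the median of all genes by 0.19 to 0.29.

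Sign changes were these, none called unless stated. Ebi3 for WT and ortho was -0.14 and -0.084 with the covariate, -0.12 and -0.10 with GC offsets, and -0.12 and -0.10 with the replicate block and GC offsets. Fgl2 was 0.13 and 0.10 with the divisor, 0.11 and 0.10 and then 0.12 and 0.11 under limma, 0.16 and 0.14 with the covariate, 0.0779 and 0.0867 with GC offsets, and 0.0782 and 0.0870 with the block too. Ortho against WT IL-2, Il10 was 0.0315, 0.0265 and 0.0339 on the RPKM scales, 0.0936 with the covariate, 0.0186 with GC offsets and 0.0195 with the block too. Fgl2 was 0.0088 and 0.0088, and Penk -0.0237 and -0.0249, in the last 2 fits, and Penk was -0.0021 by DESeq2. Leaving out libraries gave, for WT, ortho and their difference, -0.043 to 0.11, 0.061 to 0.24 and 0.00495 to 0.21 for Ebi3, -0.18 to 0.037, -0.22 to -0.097 and -0.21 to 0.0043 for Fgl2, 0.13 to 0.27, 0.13 to 0.27 and -0.069 to 0.071 for Penk, and -0.19 to 0.27 for the Il10 difference.

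Among 30 named list genes, 1044 of 1140 values kept their direction and call. The covariate ended the calls of Adam17, Rhbdf2, Dpp3, Lnpep and Dyrk3 in both comparisons and of Il1rl1 and Il18rap for ortho IL-2. Adam10 turned to 0.17, 0.16 and 0.17 (WT) and 0.16, 0.16 and 0.16 (ortho) on the RPKM scales, 0.014 (WT) without a filter, 0.066 and 0.024 with the covariate, and 0.0960 and 0.0994, both called, with GC offsets (0.0958 and 0.0989 with the block too); without single libraries it ran from -0.087 to 0.031 for WT. Il1rap turned to 0.16, 0.10 and 0.14 (WT) and 0.17, 0.11 and 0.16 (ortho) on those scales, 0.034 and 0.0018 with the covariate, and 0.080 and 0.10 with GC offsets (0.078 and 0.10 with the block too); without WT IL-2 replicate 1 it was 0.038 for WT. For ortho, Adam17 turned to 0.0145, 0.0127 and 0.0132 and Frmd8 to 0.18, 0.16 and 0.17 on those scales. Il18r1 turned to 0.27, 0.27 and 0.27 on them (called), 0.070 without a filter, 0.046 with filterByExpr, 0.049 with the covariate, 0.16 and 0.16 (called) with GC offsets without and with the block, and ran from -0.064 to 0.040 without single libraries.

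Correlations of same-numbered libraries ran from -0.66 to 0.44, and 4 of 9 libraries correlated best with their own number. With 3 libraries per group, this cannot show whether the replicate numbers pair the samples. With the replicate block 4788, 5652 and 0 genes were called, and Il10 was -0.72 and -0.75, still called. At 44 to 78 reads, depth limits Il10 more than the other tested members. With 10 reads in all, Il12a entered only the fit without a filter, at -0.87 for WT and 0.25 for ortho IL-2, neither called.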
